A study of Mus musculus with 6 samples.

Results

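The genes described here encode lysosomal proteins: 17 soluble hydrolases, 4 activator and carrier proteins, 8 membrane proteins, 6 subunits of the proton pump and the transcription factor Tfeb. They form a written list of 36 genes, and a gene was measured by the probe sets that the array annotation gives to its symbol and to no other. By this rule 35 of the 36 genes were measured, by 75 of 45037 probe sets, and 18193 genes were named in all. Cd63, a tetraspanin of late endosomes and lysosomes, had no probe set named for it alone and was not analysed here. Where several probe sets measured a gene, the one with the highest mean over the 6 arrays stands for it, and the others are given beside it.

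The lysosome is the acidic compartment in which cells break down material taken up from outside and worn parts of their own. Soluble hydrolases cut sugars, lipids, proteins and sulphated glycosaminoglycans, a proton pump called the V-ATPase keeps the lumen acid, and heavily glycosylated membrane proteins line the wall and carry products out. Macrophages, which clear cholesterol and dead cells from the vessel wall, are known for many lysosomes. Smooth muscle cells and fibroblasts also have them.

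The study asked how IRF9, a transcription factor of the interferon response, acts in vascular smooth muscle when an injured artery forms a neointima, the new inner layer of cells. Carotid arteries of 3 pools of SMC-IRF9-TG mice and 3 pools of NTG mice were collected 14 days after injury with a wire, which strips the endothelium, and 400 ng of RNA from each pool was put on 1 Affymetrix array. SMC-IRF9-TG mice carry full-length mouse IRF9 cDNA behind the SM22α promoter, which drives expression mainly in smooth muscle. NTG mice are controls without the transgene. Their pools are called the NTG pools, and those of SMC-IRF9-TG mice the transgenic pools. The labels give the strain as C57BL/6 for both groups and the methods a C57BL/6J background for the transgene, all arteries were injured, the methods give an age of 10 to 12 weeks, and each pool held 3 to 5 vessels. No uninjured artery was among the arrays.

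Values are log2 levels made by the authors with RMA, so a difference of 1 is a 2-fold change, and every difference is SMC-IRF9-TG minus NTG. A gene is said to be higher or lower by the test when limma's p, adjusted by Benjamini-Hochberg over all 45037 probe sets, was under 0.05. An array of a whole vessel cannot tell apart fewer cells of a type and less RNA per cell. Which animals went into a pool is not given, so a p-value here rests on the spread from pool to pool.

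Some arrays stood apart. Control probe sets at both ends of Actb show how much 5′ signal is lost, and in NTG pool 2 the 3′ end exceeded the 5′ end by 7.09 log2 units, against 1.56 to 3.04 in the other 5 arrays. The level of Xist, made from the inactive X chromosome in females, was 9.94 in NTG pool 1, 9.50 in NTG pool 2 and 2.94 to 4.08 in the others, although the methods state male mice. Added poly-A control RNAs averaged 6.95 to 10.64 in 4 arrays but 4.66 and 4.22 in transgenic pools 1 and 2. Pearson's r between arrays of a group, across probe sets that are not independent, was 0.927 to 0.955 for NTG and 0.98 to 0.985 for SMC-IRF9-TG. Irf9 itself was at 4.75 to 5.43 in NTG pools and 5.41 to 5.58 in transgenic pools. The region of the transcript that its probe set reads is not known here, and so the genotype labels are not checked by it. Markers of the vessel wall were present, with 10 smooth muscle genes summing to 17029 to 24067 in NTG pools and 23618 to 24488 in transgenic pools on the linear scale.

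Most lysosomal genes had a higher mean level in SMC-IRF9-TG arteries after injury, but few passed the test. Lgmn, Gusb, Hexa and Man2b1, all soluble hydrolases, were higher, and no gene of the list was lower. They are 4 of 35 genes, or 11.4%, against 3.11% of all 18193 named genes called higher and 0.511% called lower. The difference was above 0 in 32 of the 35 genes, with a median of 0.58 (25 genes and 0.31 after quantile normalization). Over all named genes 46.3% had a difference above 0 and the median was -0.05. In 18 of the 35 genes (51.4%) the groups did not overlap and the transgenic pools were on top, against 16.1% of named genes. The reverse held for 0 of the 35 and for 16.1% of named genes, and the groups overlapped for the other 17.

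Brightness differed between the list and the array as a whole. Lysosomal genes had mean levels of 2.76 to 10.4, with a median of 7.33, while array medians were 3.42 to 3.66. Among the 4150 named genes whose mean level lay between 5.92 and 8.62, the quartiles of the list, 4.96% were called higher and 0.458% lower, 28.5% had all transgenic pools on top and 5.86% all NTG pools, 70.8% had a difference above 0, and the median difference was 0.26. The 17 lysosomal genes in that range included 3 that were called higher and 9 whose groups did not overlap, with a median of 0.59. The medians were thus 0.59 against 0.26 within that range and 0.58 against -0.05 without it, and the part of brightness in the values was not tested.

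**Figure D1:**
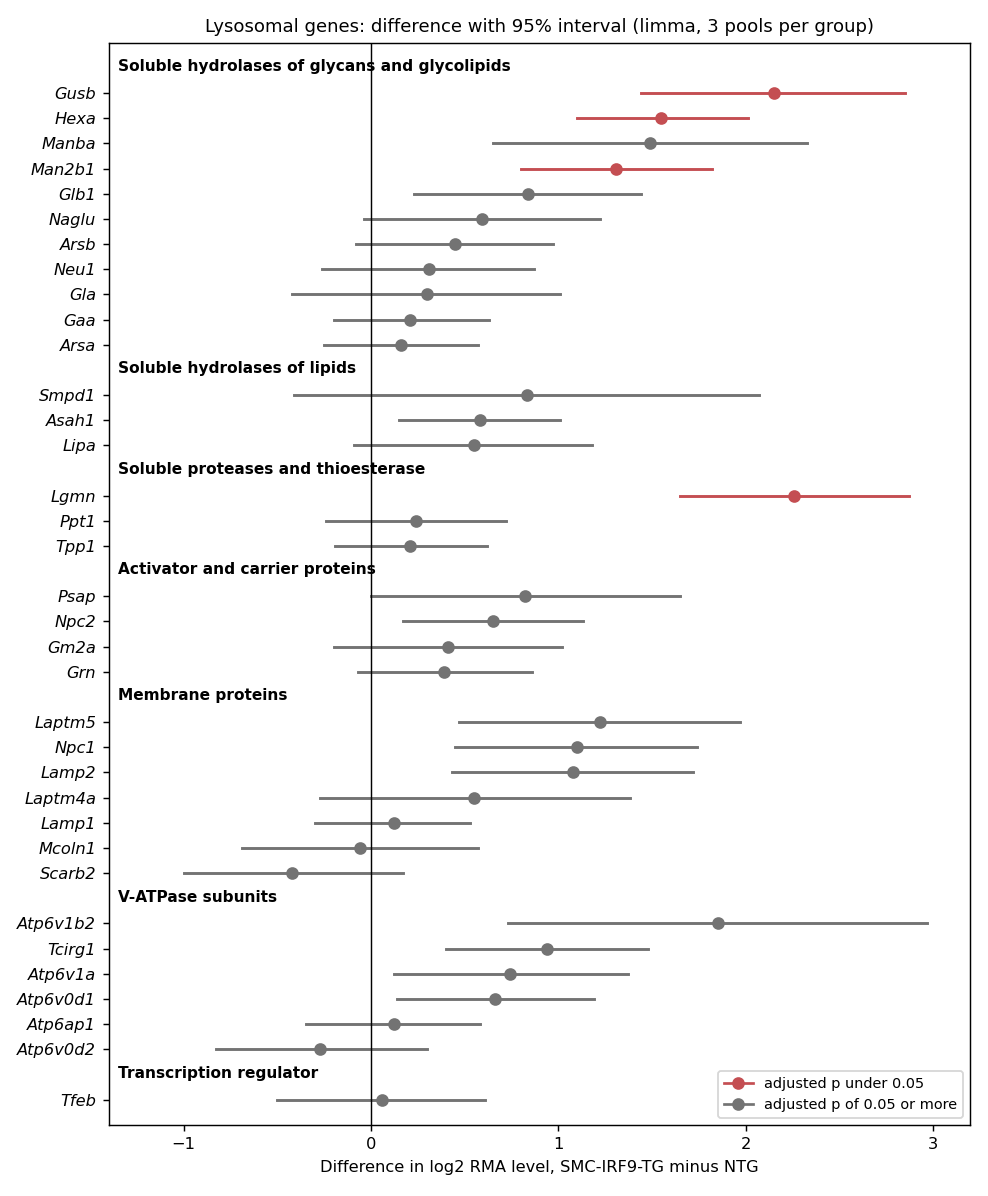
Difference between SMC-IRF9-TG and NTG pools (log2 units, horizontal axis) for the 35 measured lysosomal genes, ordered within their roles, with 95% intervals from limma and the genes called higher in red. Lgmn, at 2.26, is farthest to the right, and Scarb2, Atp6v0d2 and Mcoln1 lie left of 0.

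The median over the 35 genes in each pool shows the same order. It was 6.83, 6.94 and 7.05 in NTG pools 1, 2 and 3, against 7.52, 7.77 and 7.57 in the transgenic pools. The lowest transgenic pool was above the highest NTG pool. Summed on the linear scale, the genes came to 7801 to 8548 in NTG pools and 12092 to 12247 in transgenic pools. No p is given for either value, since the list was chosen with results of these arrays known.

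Other genes moved alongside. Of 18 macrophage markers, 14 were higher in transgenic pools, none was lower, and the median difference was 3.62. Each of the 14 was past the threshold in 6 of 6 fits that left out 1 pool. Their summed linear level was 281 to 460 in NTG pools and 4546 to 6007 in transgenic pools. Tyrobp, an adaptor of myeloid receptors, was higher by 5.42 (adjusted p = 0.00053), Lyz2, a lysozyme stored in lysosomes and granules, by 5.05 (adjusted p = 0.00186), and the complement genes C1qc and C1qa by 5.03 (adjusted p = 0.00175) and 4.75 (adjusted p = 0.00111). Itgam and Cd163 lay under the lower quartile of the arrays in both groups, and Mrc1 and Aif1 did so in NTG pools. The NTG means of Tyrobp, C1qc and C1qa (3.3, 3.13 and 3.24) were under the array medians, so the sizes of their differences are not known. Besides Itgam and Cd163, Fcgr1 (-0.40, adjusted p = 0.319) and Trem2 (0.78, adjusted p = 0.225) did not pass the test. Of 7 fibroblast markers 5 were higher (3 of them, Lum, Col1a1 and Col3a1, in each fit with a pool left out), with sums of 3273 to 3479 and 12837 to 14161. None of 6 neutrophil markers passed the test, and their sums were 78 to 89 in NTG pools and 80 to 1731 in transgenic pools. None of 10 smooth muscle markers passed it either, with a median difference of 0.04. The sums for 7 endothelial markers were 526 to 1681 and 893 to 934 with 1 gene higher, and those for 5 T cell markers were 53 to 94 and 75 to 115 with none. Adipocyte (3 genes) and skeletal muscle (6 genes) markers summed to at most 16 and 102, and none passed the test. The part of these cell types in the lysosomal values was not tested.

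The largest difference was that of Lgmn, the asparaginyl endopeptidase legumain, which also processes cathepsins. Probe set 1448883_at read 6.70, 5.85 and 6.72 in NTG pools 1, 2 and 3, against 8.80, 8.69 and 8.56 in the transgenic pools. Every transgenic pool was above every NTG pool, with the 3 of them close together. The difference was 2.26 with a standard error of 0.27 (4.79-fold, adjusted p = 0.00541). It stayed past the threshold in 6 of 6 fits that left out 1 pool, and without NTG pool 2 it was 1.97 (adjusted p = 0.00496).

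Gusb, the β-glucuronidase that trims glucuronic acid from glycosaminoglycans, came next. Its level was 6.59, 6.50 and 5.43 in the NTG pools, against 8.37, 8.29 and 8.29 in the transgenic pools (1448124_at). NTG pool 3 lay more than 1 log2 unit below the other NTG pools, and the groups did not overlap. The difference was 2.15 ± 0.31 (standard error, as in the text after each ±, 4.43-fold, adjusted p = 0.0118). The other probe set, 1430332_a_at, was also higher, by 1.64 (adjusted p = 0.0189, at most 0.0723 with a pool left out). Its NTG mean of 2.69 was near the lower quartile of those arrays (2.62 on average), so the size of that difference is not known. By the brighter probe set the call was lost without transgenic pool 1 (adjusted p = 0.0507) or pool 2 (adjusted p = 0.0646), while the difference was 2.12 and 2.16.

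Hexa encodes the α subunit of β-hexosaminidase, the enzyme whose loss lets gangliosides build up in Tay-Sachs disease. Levels were 8.86, 8.57 and 8.89 in NTG and 10.13, 10.38 and 10.47 in transgenic pools. All transgenic pools were higher, and the pools of each group lay close together. The difference was 1.55 ± 0.20 (2.94-fold, adjusted p = 0.00759). It missed the threshold in 1 of 6 fits, the one without transgenic pool 2 (1.53, adjusted p = 0.0505).

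The α-mannosidase Man2b1, which takes mannose from N-glycans, read 7.30, 7.40 and 7.87 in the NTG pools, against 8.89, 8.62 and 8.98 in the transgenic pools. The groups were apart by less than for the other 3 genes. The difference of 1.31 ± 0.22 (2.48-fold, adjusted p = 0.0230) was past the threshold in 2 of 6 fits with a pool left out. The call was lost without NTG pool 1 (1.20, adjusted p = 0.0730) and without transgenic pools 1, 2 or 3 (1.28, 1.41 and 1.23, adjusted p = 0.108, 0.0756 and 0.109). The other probe set, 1436781_at, differed by 0.40 (adjusted p = 0.409), with overlapping groups.

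**Figure D2:**
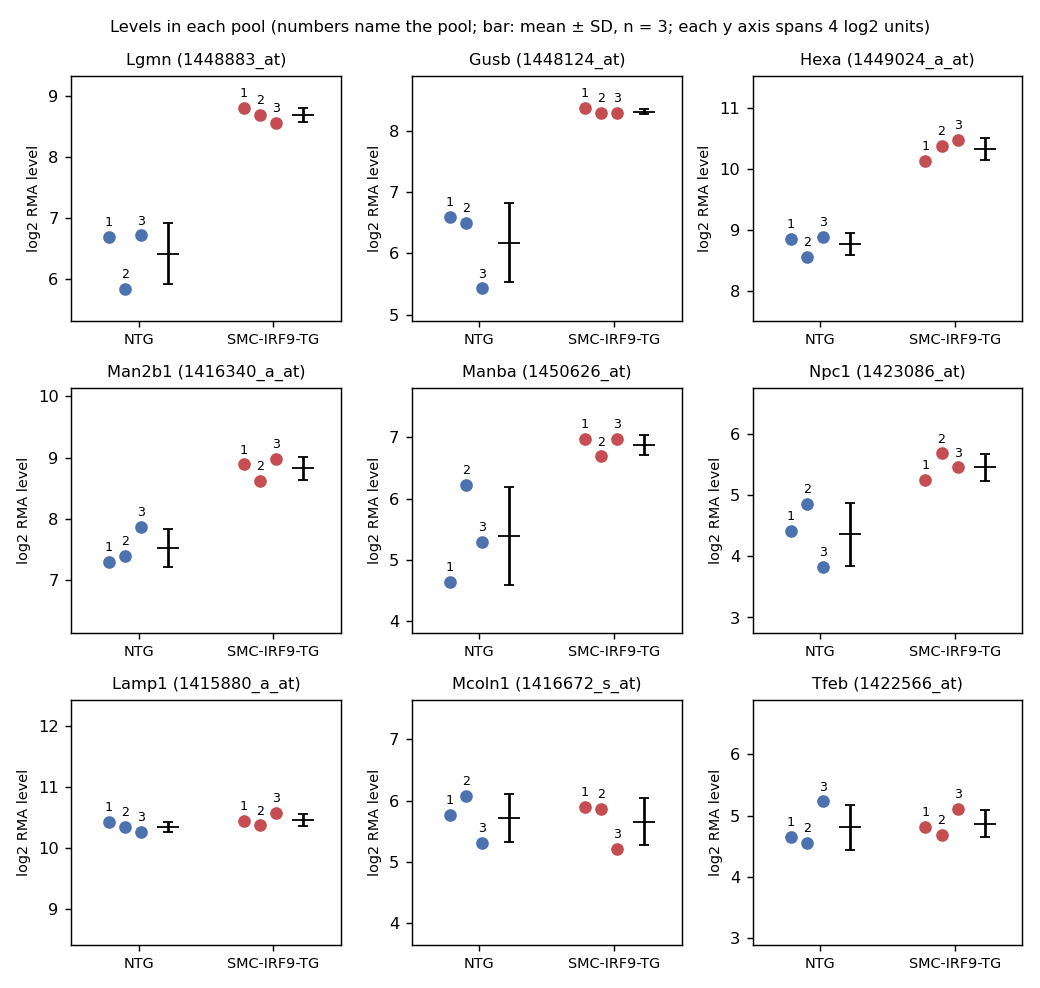
Level of 9 lysosomal genes in each pool (log2, each vertical axis spanning 4 units), with numbered points for the pools and a bar for the group mean ± SD (n = 3). For Lgmn, Gusb, Hexa and Man2b1 the transgenic pools lie at 8.29 or above with none as low as an NTG pool, whereas the groups of Lamp1, Mcoln1 and Tfeb overlap.

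The other 8 hydrolases of glycans and glycolipids did not pass the test, though each had a difference above 0 (after quantile normalization Gaa and Arsa, and by the mean of their probe sets Gla and Neu1, were below 0). Manba, the β-mannosidase that acts after Man2b1 on the same glycans, read 4.64, 6.23 and 5.30 in the NTG pools, against 6.97, 6.69 and 6.98 in the transgenic pools. The groups did not overlap, and the spread among NTG pools was wide. The difference was 1.49 ± 0.37 (adjusted p = 0.0750), and it passed without NTG pool 2, at 1.91 (adjusted p = 0.0149). Glb1, the β-galactosidase, was at 5.65, 6.12 and 5.12 against 6.41, 6.58 and 6.41 (0.84, adjusted p = 0.132), and without NTG pool 2 at a difference of 1.08 (adjusted p = 0.0479). Naglu, which removes N-acetylglucosamine from heparan sulphate, differed by 0.59 (adjusted p = 0.247), with groups that were only just apart.

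By their brightest probe sets the sulphatases and the sialidase had overlapping groups. Arsb, which acts on dermatan and chondroitin sulphates, differed by 0.45 (95% interval -0.08 to 0.97), and its dimmer probe sets by -0.36, with all transgenic pools below all NTG pools, and 0.15. Arsa, which acts on sulphatide of myelin and other membranes, differed by 0.16 (-0.25 to 0.57). Neu1, the sialidase, differed by 0.31 (-0.26 to 0.87), and its dimmer probe sets by -0.21 and -0.42. Gaa, which degrades glycogen, read 7.33, 7.23 and 7.21 in NTG and 7.52, 7.33 and 7.57 in transgenic pools, a difference of 0.21 (-0.20 to 0.63), and its other probe set differed by 1.06 (adjusted p = 0.217), or 0.46 without NTG pool 2. Gla, the α-galactosidase of globosides, was dim, with means of 2.61 and 2.91 that are both under the array medians. Its 3 probe sets differed by 0.30, -0.33 and -0.37.

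None of the 3 lipid hydrolases passed the test. Asah1, the acid ceramidase, read 7.73, 7.78 and 8.07 in the NTG pools, against 8.47, 8.37 and 8.47 in the transgenic pools. These groups did not overlap, and the difference was 0.58 ± 0.19 (adjusted p = 0.141). Lipa, the acid lipase that frees cholesterol from its esters in foam cells, differed by 0.55 (adjusted p = 0.272), and its dimmer probe sets by 0.08 and 0.37. Smpd1, the acid sphingomyelinase, differed by 0.83 (adjusted p = 0.373), and this rests on NTG pool 2. It read 5.72 there, while NTG pools 1 and 3 were at 7.87 and 7.85 and the transgenic pools at 7.52, 8.21 and 8.21, and without that pool the difference was 0.12 (adjusted p = 0.783). Its other probe set, 1447874_x_at, went the other way, by -0.54 (95% interval -1.03 to -0.05, adjusted p = 0.193), with all transgenic pools below all NTG pools.

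Beside Lgmn, the list holds 1 protease and 1 thioesterase, and neither passed. Tpp1, a tripeptidyl peptidase, read 8.56, 8.69 and 8.61 against 8.88, 8.89 and 8.74. Its groups did not overlap although the difference was 0.21 (95% interval -0.19 to 0.62), and its dimmer probe set differed by 0.28. Ppt1, which takes palmitate from proteins, differed by 0.24 (adjusted p = 0.497) by its brightest probe set. The dimmer 1422468_at was higher by 1.45 (adjusted p = 0.0362), a call kept in 1 of 6 fits with a pool left out, and the other 3 differed by 0.06, 0.09 and -0.57.

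The activators and carriers help hydrolases reach lipids that lie in membranes. Npc2, which takes cholesterol from inner vesicles and hands it to Npc1, read 9.11, 9.63 and 9.27 in the NTG pools, against 9.85 to 10.10 in the transgenic pools. Its groups did not overlap, and the difference of 0.65 ± 0.21 missed the threshold (adjusted p = 0.136). A dimmer probe set, 1416901_at, was higher by 1.22 (adjusted p = 0.0179), and this was lost when any 1 transgenic pool was left out (adjusted p at most 0.101), and the others differed by 0.81 and 0.24. Psap, the precursor of the saposins, read 9.52, 7.98 and 8.38 against 9.52, 9.51 and 9.33, so NTG pool 1 was as high as the highest transgenic pool (0.82, adjusted p = 0.224). Its other probe set differed by 2.02 (adjusted p = 0.201), and by 0.97 without NTG pool 2. Gm2a, the activator that brings gangliosides to β-hexosaminidase, differed by 0.41 (adjusted p = 0.377), and by 0.12 without NTG pool 2, while its dimmer probe sets differed by 0.96 (adjusted p = 0.0778) and -0.15. Grn, progranulin, differed by 0.39, 0.44 and 1.28 across its 3 probe sets. For each the groups did not overlap, and the smallest adjusted p was 0.0524.

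**Figure D3:**
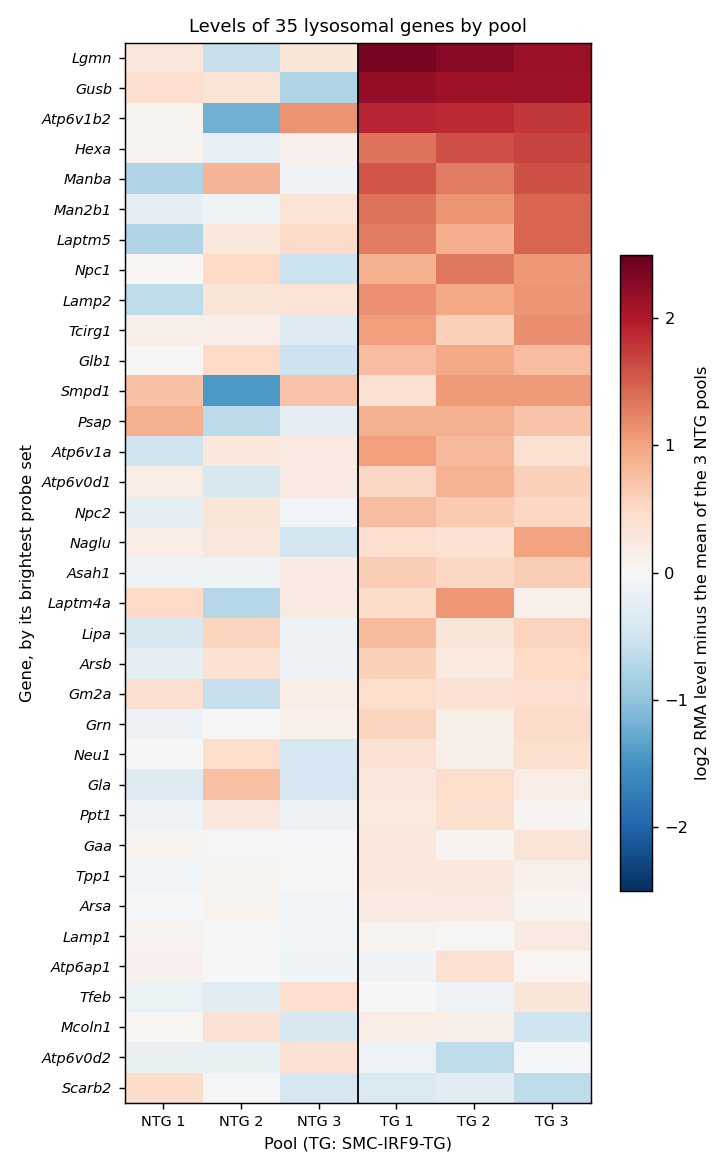
Level of each of 35 lysosomal genes in each pool (TG: SMC-IRF9-TG) minus its mean over the 3 NTG pools (log2 units, colour), with genes in rows ordered by their difference and pools in columns. The transgenic columns are above 0 on average in 32 rows, and single NTG pools stand out for Smpd1 and Psap.

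Of the 7 measured membrane proteins none passed the test by the brightest probe set. Lamp1, the most used marker of the lysosomal wall, read 10.43, 10.34 and 10.27 in the NTG pools, against 10.44, 10.37 and 10.57 in the transgenic pools. The groups overlapped, and the 95% interval of the difference was -0.30 to 0.53 around 0.12. Lamp2, its relative that also serves autophagy, read 8.11, 9.04 and 9.08 against 9.89, 9.71 and 9.85. Here the groups were apart, and the difference was 1.08 ± 0.28 (adjusted p = 0.0857). Its 4 probe sets all had positive differences (0.62 to 2.79), and the dimmest, 1416343_a_at, was higher with an adjusted p of 0.0275, past the threshold in 2 of 6 fits with a pool left out (at most 0.123). That probe set read 3.81, 2.04 and 3.87 in NTG and 5.63, 6.69 and 5.76 in transgenic pools. Its NTG mean of 3.24 was under the array medians, so the size of its difference is not known. Lamp2 is on the X chromosome, as are Gla and Atp6ap1. The part of the uneven Xist was not tested in their values or in those of the other genes, the 4 called higher included.

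Npc1, the transporter that moves cholesterol out of the lysosome, read 4.41, 4.85 and 3.82 in the NTG pools, against 5.24, 5.68 and 5.45 in the transgenic pools. All transgenic pools were higher, with a difference of 1.10 ± 0.28 (adjusted p = 0.0828). It passed without NTG pool 2, at 1.34 (adjusted p = 0.0374). Laptm5, a lysosomal protein found chiefly in blood cells, read 4.26, 5.26 and 5.49 against 6.29, 5.92 and 6.46 by its brightest probe set (1.22, adjusted p = 0.0927). Its 5 probe sets disagreed widely. The dim 1436905_x_at, with NTG values near the lower quartile of those arrays (2.62 on average), read 2.69, 3.13 and 2.09 in NTG and 7.37, 6.51 and 7.13 in transgenic pools, a difference of 4.37 (adjusted p = 0.000671) that passed in 6 of 6 fits. Since detection was not checked at such a level, the size of that difference is not known. The other 3 differed by -0.11 to 0.41.

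The remaining membrane proteins did not separate the groups. Scarb2, the receptor that carries glucocerebrosidase to the lysosome, had the lowest difference of the list, -0.42 (standard error 0.26, adjusted p = 0.347). It read 9.88, 9.37 and 9.0 in NTG and 9.04, 9.16 and 8.79 in transgenic pools, which overlap. Its other probe set, 1460235_at, differed by 1.23 with the groups apart (adjusted p = 0.179), and by 0.68 without NTG pool 2. Mcoln1, a calcium-releasing channel of the lysosomal wall, differed by -0.06 (-0.69 to 0.57), and its dimmer probe sets by -0.33 and -0.34. Laptm4a, a relative of Laptm5 present in most tissues, differed by 0.55 (adjusted p = 0.374), and by 0.19 without NTG pool 2.

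**Figure D4:**
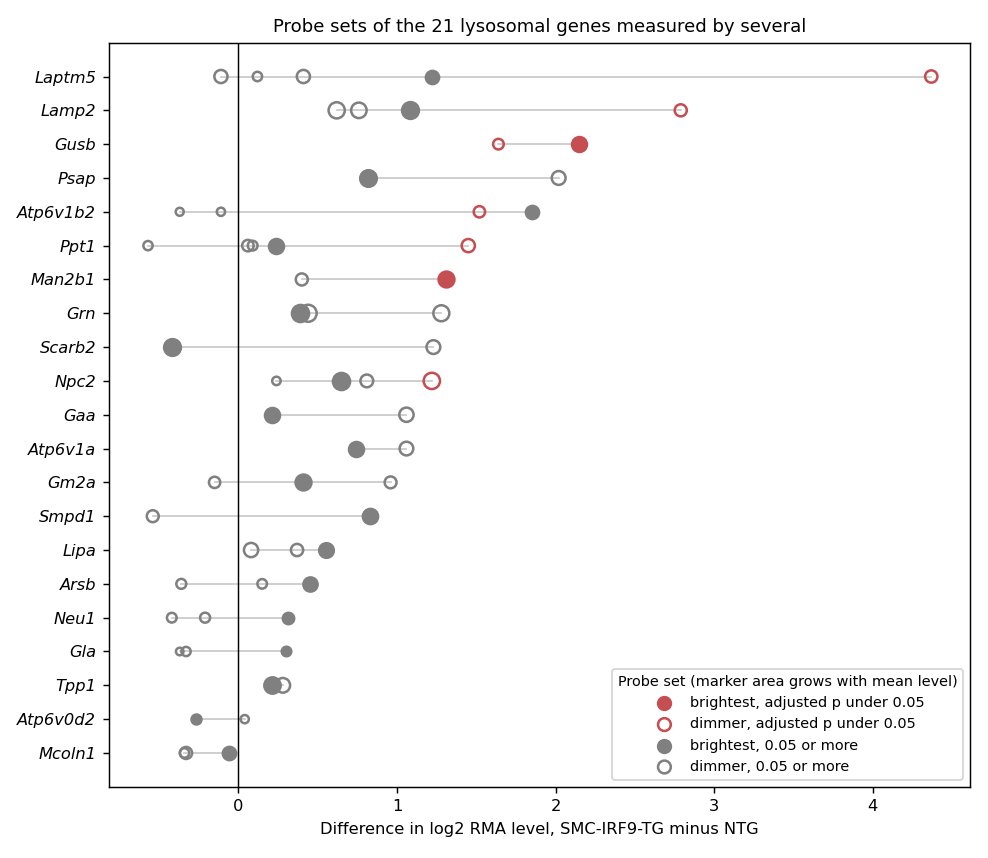
Difference between SMC-IRF9-TG and NTG pools (log2 units, horizontal axis) for every probe set of the 21 lysosomal genes measured by several, filled where it is the brightest of its gene, red where the adjusted p was under 0.05, and larger where its mean level is higher. Probe sets of a gene spread widely, from -0.11 to 4.37 for Laptm5 and from -0.57 to 1.45 for Ppt1.

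Over all 75 probe sets of the list, 10 were higher and 0 were lower, or 13.3% against 2.37% of all probe sets called higher and 0.373% called lower. In 5 genes (Laptm5, Lamp2, Ppt1, Npc2 and Atp6v1b2) a dimmer probe set passed where the brightest did not, so 9 genes were called by any probe set. The matching share over all named genes was not computed, and a gene with more probe sets has more chances to be called, so that count cannot be judged. In 10 of the 21 genes with several probe sets these took both signs. What part of a transcript each of them reads is not known here. NTG pool 2 read at least 1 log2 unit below both other NTG pools at 6 of the 75 probe sets, against 1 each for NTG pools 1 and 3. Over all probe sets this held for 3.41% in NTG pool 2 and for 0.95% and 1.28% in the other two.

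The V-ATPase turns ATP into a proton gradient through a membrane sector, V0, and a catalytic sector, V1. Of the 6 subunits on the list none passed the test, with a median difference of 0.70. Atp6v1b2, a V1 subunit, read 4.75, 3.46 and 5.78 in the NTG pools, against 6.57, 6.52 and 6.44 in the transgenic pools. The NTG pools spread over more than 2 log2 units under a tight SMC-IRF9-TG group, and the difference was 1.85 ± 0.49 (adjusted p = 0.0892). It was 1.25 without NTG pool 2 (adjusted p = 0.0688), and 2.40 without NTG pool 3, where it passed (adjusted p = 0.0254). A dimmer probe set, 1419883_s_at, was higher by 1.52 (adjusted p = 0.0307), a call lost without any 1 transgenic pool (adjusted p at most 0.124). Its NTG mean of 3.26 was under the array medians, so the size of this difference is not known. The 2 others differed by -0.11 and -0.37.

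Tcirg1, the membrane-sector subunit known from osteoclasts and macrophages, read 5.48, 5.50 and 5.01 against 6.38, 5.93 and 6.49 (0.94, adjusted p = 0.0801). Atp6v1a, the catalytic subunit, differed by 0.74 (adjusted p = 0.172), and Atp6v0d1, which couples the sectors, by 0.66 (adjusted p = 0.156). For all 3 the groups did not overlap. The other probe set of Atp6v1a differed by 1.06 (adjusted p = 0.189), with overlapping groups, and by 0.63 without NTG pool 2. Atp6ap1, an accessory subunit, differed by 0.12 (95% interval -0.35 to 0.58). Atp6v0d2, the form of the coupling subunit found in osteoclasts and macrophages, was under the array medians in both groups and differed by -0.27 (-0.83 to 0.30), and by 0.04 at its other probe set. With 13 further subunits, none of 19 passed the test, and the median difference was 0.12. Among the 13, Atp6v1h differed by 1.10 (adjusted p = 0.0597) and Atp6v0e2 by -1.07 (adjusted p = 0.0671), both picked for their values. The brightest of them, Atp6v1g1 and Atp6ap2, differed by 0.18 (adjusted p = 0.695) and -0.05 (adjusted p = 0.898).

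Tfeb, the transcription factor that drives many lysosomal genes, read 4.65, 4.55 and 5.23 in the NTG pools, against 4.81, 4.68 and 5.11 in the transgenic pools. The groups overlapped, and the 95% interval of the difference was -0.50 to 0.61 around 0.06. These are levels of its RNA, and its activity is set largely by where the protein sits in the cell.

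Tfeb binds the CLEAR element, whose core is the E-box CACGTG. Promoters, taken as 250 bases before to 50 bases after each start, were listed in RefSeq (GRCm38.p6) for 32 of the 36 genes, and both strands were searched for CACGTG and for the longer GTCACGTG, which contains it. CACGTG was found for 10 of the 32 (31.2%), against 8.09% of 27025 genes with a promoter and 7.15% of 32851 promoter windows. GTCACGTG was found for 8 of the 32, against 2.55% of genes and 2.25% of windows. Of 63 further lysosomal genes with a promoter, 14 (22.2%) held CACGTG and 11 (17.5%) held GTCACGTG. Of the 4 genes that passed the test, only Lgmn held either motif, at 1 of its 2 listed starts. A match of letters is a description and not a binding site.

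The promoters of the 4 genes that passed the test are shown as they are the ones the result rests on, 5′ to 3′ on the strand of the gene, with CACGTG in capitals where present. Lgmn has both of its listed starts shown.
Lgmn, chr12:102439043-102439342, - strand: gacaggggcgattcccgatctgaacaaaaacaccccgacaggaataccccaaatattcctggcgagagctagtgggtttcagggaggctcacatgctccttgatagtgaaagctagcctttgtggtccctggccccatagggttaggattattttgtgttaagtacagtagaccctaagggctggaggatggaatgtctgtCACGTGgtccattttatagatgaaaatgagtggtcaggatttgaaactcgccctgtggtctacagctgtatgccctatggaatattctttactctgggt
Lgmn, chr12:102439679-102439978, - strand: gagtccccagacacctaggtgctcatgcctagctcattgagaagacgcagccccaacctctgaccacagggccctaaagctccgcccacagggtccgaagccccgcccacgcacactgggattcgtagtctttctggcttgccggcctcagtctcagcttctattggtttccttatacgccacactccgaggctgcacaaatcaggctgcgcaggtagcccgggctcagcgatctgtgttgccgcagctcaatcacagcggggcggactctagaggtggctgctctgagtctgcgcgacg
Gusb, chr5:130003000-130003299, - strand: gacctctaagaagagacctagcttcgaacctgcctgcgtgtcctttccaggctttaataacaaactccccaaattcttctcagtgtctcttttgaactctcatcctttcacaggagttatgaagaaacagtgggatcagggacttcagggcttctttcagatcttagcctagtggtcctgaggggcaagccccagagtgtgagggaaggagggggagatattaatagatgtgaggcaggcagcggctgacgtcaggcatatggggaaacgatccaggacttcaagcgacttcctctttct
Hexa, chr9:59539290-59539589, + strand: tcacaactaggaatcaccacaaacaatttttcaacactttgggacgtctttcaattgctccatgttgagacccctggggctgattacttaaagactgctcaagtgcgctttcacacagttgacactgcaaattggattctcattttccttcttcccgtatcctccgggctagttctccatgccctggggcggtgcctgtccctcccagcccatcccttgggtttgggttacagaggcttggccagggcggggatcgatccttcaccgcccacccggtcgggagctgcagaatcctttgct
Man2b1, chr8:85083019-85083318, + strand: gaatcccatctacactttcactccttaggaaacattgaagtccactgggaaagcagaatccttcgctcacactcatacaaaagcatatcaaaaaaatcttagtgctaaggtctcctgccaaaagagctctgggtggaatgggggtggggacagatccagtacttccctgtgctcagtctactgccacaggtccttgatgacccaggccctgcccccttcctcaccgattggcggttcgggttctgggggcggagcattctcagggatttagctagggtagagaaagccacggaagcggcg

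The 8 genes with GTCACGTG are shown by 12 bases on either side, with the motif in capitals on the strand it was read from (CACGTGAC where it lies on the other strand). Its position is that of its first base, counted from the start site as 0. Mcoln1 holds it in 2 places.
Gla, chrX:134601182-134601213, - strand, motif at -196: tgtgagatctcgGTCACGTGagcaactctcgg
Glb1, chr9:114401016-114401047, + strand, motif at -50: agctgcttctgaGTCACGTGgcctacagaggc
Naglu, chr11:101070007-101070038, + strand, motif at -75: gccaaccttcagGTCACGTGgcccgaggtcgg
Arsa, chr15:89477423-89477454, - strand, motif at -18: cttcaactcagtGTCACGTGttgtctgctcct
Lgmn, chr12:102439124-102439155, - strand, motif at -51: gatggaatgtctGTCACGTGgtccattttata
Lamp1, chr8:13159121-13159152, + strand, motif at -28: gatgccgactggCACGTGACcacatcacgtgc
Mcoln1, chr8:3500434-3500465, + strand, motif at -73: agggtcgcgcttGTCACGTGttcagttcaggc
Mcoln1, chr8:3500462-3500493, + strand, motif at -45: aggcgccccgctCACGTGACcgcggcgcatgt
Atp6v0d1, chr8:105566050-105566081, - strand, motif at -5: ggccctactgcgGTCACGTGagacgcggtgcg

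Of these 8 genes only Lgmn passed the test, and Mcoln1, Lamp1, Arsa and Gla had overlapping groups. Differences for the 8 ran from -0.06 for Mcoln1 to 2.26 for Lgmn. The motif was present both in the gene that rose most and in genes whose interval of the difference included 0.

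Lysosomal genes outside the list were taken from lists of the same pathway. Of 76 that were measured, 4 were higher (5.26%) and 0 lower by the brightest probe set, with a median difference of 0.25. Over all named genes 3.11% were higher, with a median of -0.05. In the brightness range above, set by the 35 genes of the list and not by these 76, the values were 4.96% and 0.26. A difference above 0 was found for 65.8% of the 76, 46.3% of all named genes and 70.8% of that range. All transgenic pools were on top for 31.6%, 16.1% and 28.5%. All NTG pools were on top for 5 of the 76, and for 16.1% and 5.86%. At an unadjusted limma p under 0.05, 22 of the 76 were higher and 4 lower, and 15 of the 35 genes of the list were higher and 0 lower. This threshold gave 14.9% higher and 9.81% lower over all named genes, and 25.6% and 4.67% in the brightness range.

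The hydrolases and activators among them were 2 of 23 higher. Acp5, the tartrate-resistant acid phosphatase of osteoclasts and macrophages, read 3.09, 2.57 and 2.57 in NTG and 5.02, 4.64 and 4.38 in transgenic pools (1.94 ± 0.25, adjusted p = 0.00742). Its NTG mean of 2.74 was near the lower quartile of those arrays (2.62 on average), so the size of this difference is not known. Fuca1, the α-fucosidase, read 7.56, 7.34 and 7.06 against 8.12, 8.55 and 8.59 (1.10 ± 0.22, adjusted p = 0.0416), and its call was lost whichever pool was left out (0.97 to 1.25, adjusted p from 0.0558 to 0.182). Acp5 was past the threshold in 6 of 6 such fits. Of the brightest that did not pass, Scpep1, a serine carboxypeptidase, differed by 0.41 (adjusted p = 0.292) and Ids, the iduronate sulphatase, by -0.05 (adjusted p = 0.911).

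Of 20 further membrane proteins and transporters, 2 were higher. Slc36a1, an amino acid transporter, read 2.50, 2.43 and 2.57 in the NTG pools, which is near the bottom of the arrays, and 4.24, 3.96 and 3.97 in the transgenic pools (adjusted p = 0.00572). Its group mean in NTG lay under the lower quartile of the arrays, so the size of its difference is not known. Slc15a3, a transporter of peptides and histidine found in immune cells, differed by 2.21 ± 0.36 (adjusted p = 0.0179). It read 3.27, 1.89 and 2.87 in NTG and 5.30, 4.65 and 4.73 in transgenic pools. The NTG values were near the lower quartile of those arrays (2.62 on average), so the size of this difference is not known either. Slc15a3 passed in 3 of 6 fits with a pool left out, failing without each transgenic pool in turn (adjusted p at most 0.0755). Of the brightest that did not pass, Cd164, a sialomucin of endosomes, differed by 0.67 (adjusted p = 0.103), and Laptm4b by -0.39 (adjusted p = 0.257).

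None of 20 genes of sorting and signalling passed. Rab7, the GTPase of late endosomes, differed by 0.39 (adjusted p = 0.259), and Lamtor1, which anchors the nutrient-sensing complex, by 0.16 (adjusted p = 0.636).

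**Figure D5:**
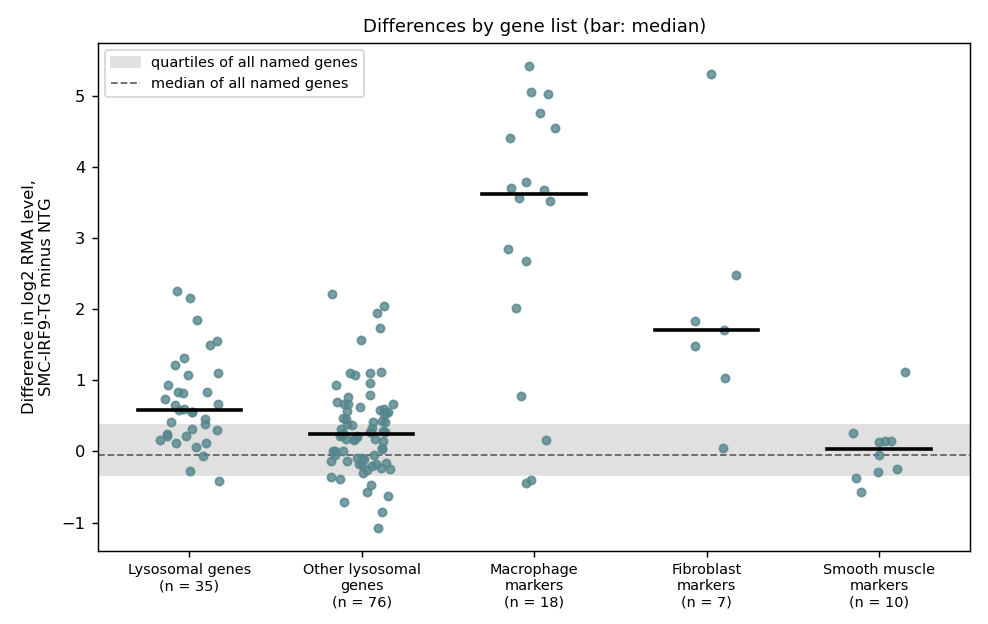
Difference between SMC-IRF9-TG and NTG pools (log2 units, vertical axis) for each gene of 5 lists, with a bar at the median of the list and a grey band for the quartiles of all named genes. The medians are 0.58 for the lysosomal genes of the list, 0.25 for other lysosomal genes, 3.62 for macrophage, 1.71 for fibroblast and 0.04 for smooth muscle markers.

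None of the 4 calls held in every setting. By the methods' t-test 0 of the 35 genes passed after adjustment and 14 were higher at an unadjusted p under 0.05, which held for 10.6% of all named genes and 18.8% of those in the brightness range. With NTG pool 2 left out, 7 lysosomal genes of the list were higher, the 4 named above with Glb1, Manba and Npc1. Without transgenic pool 1 there were 2, Hexa and Lgmn, and without transgenic pool 2 there was 1, Lgmn. With NTG pool 3, the control with low Xist, as the only control, the median difference of the list was 0.59. With transgenic pool 3, whose poly-A controls were like those of the NTG arrays, as the only transgenic pool, it was 0.51. In those fits 1 pool stands for its group and is assumed to vary like the others. The part of Xist or of the poly-A controls in the values was not tested by them.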

How the data were processed

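RNA from 6 pools of wire-injured mouse carotid arteries (3 NTG, 3 SMC-IRF9-TG, grouped by the labels) was measured on Affymetrix arrays. The authors deposited log2 levels per probe set. The submitters' processing notes name RMA and Affymetrix Expression Console, and neither version is given in the sources used here. RMA subtracts background, equalizes arrays by quantiles and combines the probes of a set. The deposited levels per probe set were still not equal across arrays. Their lower quartiles were 2.57 to 2.66 in NTG and 2.33 to 2.41 in transgenic pools, and their medians 3.49 to 3.66 and 3.42 to 3.48. Scanner files were not used here, so detection was not checked, and 6 arrays limit the precision. Of 45101 probe sets, 64 controls were left out. The platform annotation names 1 gene for 34945, several for 932 and none for 9160.

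Transgenic and control pools were set against each other by lmFit and eBayes of limma 3.58.1 (R 4.3.3, 2-sided) on all 45037 probe sets. In simulated data with no outlying pool, limma called 2 of 67 probe sets with a true difference of 1 log2 unit. It called 55 of 67 at 2 units, 66 of 66 at 4 and 2 of 44837 at 0. A t-test called 0, 2, 33 and 1 of them. Most true differences of 1 unit were thus missed in the simulated data, where 44837 of 45037 probe sets had no difference. In the deposited data limma called 1069 higher and 168 lower, and the adjustment is less strict when more probe sets pass. The share missed in the deposited data is therefore not known. The methods name a t-test for the whole paper and none for the arrays, so it was an alternative. An exact permutation test of 3 against 3 cannot go below 0.1. Tables used pandas 2.3.3 and scipy 1.17.1 in Python 3.11.15, and figures matplotlib 3.10.9.

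The members, the other gene lists and the level range were chosen with earlier results of these data known. Named genes were all members and 4 macrophage markers. In each other lysosomal list they were up to 4 with the largest difference among those that passed. Up to 2 of the highest level among those that did not pass were added. Named outside this rule were Atp6v1h and Atp6v0e2, picked for their values, and further macrophage and fibroblast markers. Irf9, Actb and Xist were named as checks of the arrays. Alternatives were other normalizations, a level filter, a trended robust prior, array weights, the methods' t-test, a replicate block, the mean of a gene's probe sets, other thresholds and each pool left out. Fits with 1 pool as its group were added after seeing the data.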

Additional observations from a re-analysis of the deposited data

How the results depend on the processing

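No lysosomal gene of the list was lower in any setting run. The number higher, 4, was 9 with array weights. It was 0 by the methods' t-test (14 at an unadjusted p under 0.05), which called 0 probe sets higher over the whole array. It was 2 at a threshold of 0.01, 10 at 0.1 and 1 to 7 with a pool left out. The 4 further lysosomal genes that were higher became 8 after centring each array and 8 with the mean of a gene's probe sets. They became 0 by the methods' t-test, 2 at 0.01, 10 at 0.1 and 2 to 6 with a pool left out. The count of further genes lower, 0, was 1 (Atp6v0e2) under quantile normalization, array weights and a threshold of 0.1, and 0 to 1 with a pool left out. The median difference of 0.58 was 0.67 after centring, 0.31 under quantile normalization, 0.51 with SMC-IRF9-TG replicate 3 alone and 0.53 to 0.61 with a pool left out. Centring moved the median of all probe sets from -0.13 to -0.03 and quantile normalization to -0.05, so the list stood above it by 0.71 in the deposited values, 0.71 after centring and 0.37 after quantile normalization, with 32, 33 and 25 of 35 differences above 0. The causes were not tested.

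Quantile normalization turned Gaa to -0.08, Arsa to -0.14, Tpp1 to -0.05, Ppt1 to -0.06, Lamp1 to -0.13, Atp6ap1 to -0.15 and Tfeb to -0.14. The mean of all probe sets turned Gla to -0.13, Neu1 to -0.11 and Scarb2 to 0.40. Centring turned Mcoln1 to 0.03, and NTG replicate 3 as the only control turned Mcoln1 to 0.34 and Tfeb to -0.36. With a pool left out, differences ran for Mcoln1 from -0.26 to 0.16, for Atp6ap1 from -0.02 to 0.22 and for Tfeb from -0.07 to 0.27. None of these was past the threshold. With the replicate number as a block, 4 genes of the list were still higher and the median difference was 0.58, while calls over all probe sets went from 1069 higher and 168 lower to 659 and 71, and of the 4 further lysosomal genes 3 were called. The samples share only a number (correlations of same-numbered deviations -0.15, -0.001 and 0.027), and not every sample correlated best with its own. Over all probe sets the calls were 547 higher and 153 lower under quantile normalization, 1497 and 111 after centring, and 1212 and 243 with array weights. They were 0 and 1 by the methods' t-test, and 486 and 91 by gene means. With a pool left out they were 297 to 1268 higher and 23 to 583 lower.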
